A study of Mus musculus with 7 samples.

Results

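Genes that mark marginal zone and follicular B cells were followed in bulk RNA of mouse spleen, comparing mice that lack the formyl peptide receptor gene Fpr2 with wild type. The set holds 10 of the 55414 genes counted. Cr2, Cd1d1, S1pr3, Dtx1, Cd9, Fcrl5, Mzb1 and Myof stand for marginal zone B cells, and Fcer2a and Fcrl1 for follicular B cells. They were taken by name from a list of known subset genes and matched to the count table by Ensembl ID. The series has 3 libraries labelled WT (genotype C57BL/6N) and 4 labelled Fpr2KO, each of polyadenylated RNA from spleen. No strain is named for the Fpr2KO mice, and no age, sex or treatment for either group. Whether each numbered replicate came from its own animal is not stated. The p-values and intervals therefore rest on differences among libraries that may be partly technical. Means are given ± SD over 3 WT and 4 Fpr2KO libraries throughout.

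In the spleen, follicular B cells recirculate through the follicles of the white pulp, while marginal zone B cells stay at the border with the red pulp and meet blood-borne antigen. Signalling through Notch2, driven by its ligand Dll1, directs immature B cells to the marginal zone fate, and sphingosine phosphate receptors hold the cells in place. High CD21 with low CD23 on the surface separates marginal zone from follicular B cells, and these proteins are the products of Cr2 and Fcer2a. In bulk tissue, fewer cells of a type and less RNA per cell cannot be told apart.

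The upstream sequences of Cr2 and Fcer2a are shown because these genes define the split between the subsets, and because Notch signalling acts on DNA through the protein RBPJ. Each is 240 bases from the RefSeq promoter table (GRCm38.p6), 5′ to 3′ on the gene's strand, ending before the first annotated exon. Capitals mark the RBPJ core letters TGGGAA, searched on both strands.
Cr2, chr1:195176730-195176969, minus strand: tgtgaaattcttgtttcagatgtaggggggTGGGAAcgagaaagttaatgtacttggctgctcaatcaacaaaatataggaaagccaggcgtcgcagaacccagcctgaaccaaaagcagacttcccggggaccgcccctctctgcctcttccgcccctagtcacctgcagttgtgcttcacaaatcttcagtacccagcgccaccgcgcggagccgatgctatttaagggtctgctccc
Fcer2a, chr8:3694185-3694424, minus strand: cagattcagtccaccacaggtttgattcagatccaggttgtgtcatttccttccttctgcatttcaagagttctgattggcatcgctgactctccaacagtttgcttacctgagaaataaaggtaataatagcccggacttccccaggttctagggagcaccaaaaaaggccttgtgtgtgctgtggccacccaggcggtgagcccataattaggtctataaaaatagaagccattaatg
The letters occur 1 time in the Cr2 window and not in this Fcer2a window. They occur in 20.8% of the 32851 promoter windows of the table at the same length, and in 4 of the 10 windows listed for 8 of the members. Of the 10 windows, those of Dtx1 and Cd9 lie wholly inside annotated exons, and the Cd9 window is among the 4. The table lists 3 windows for Fcer2a, and both of the others hold the letters. A match is only a description of the letters.

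The libraries held 14968605 to 18692809 counts, so that 3 counts correspond to between 0.156 and 0.201 CPM (counts scaled to a common library size by the TMM method). Fpr2 followed the labels, with 537, 479 and 477 counts in WT and 0 in every Fpr2KO library. Every member was well covered, with 698 to 10708 counts per library, and all 10 passed the filter on low counts. The core B cell list (18 genes, among them Ms4a1) was detected in full and summed to 5255 to 5457 CPM in WT and 4905 to 5567 in Fpr2KO, with overlapping groups. Transcripts of pancreatic acinar cells, a neighbouring tissue, summed to 853.3 and 482.2 CPM in Fpr2KO replicates 1 and 2 and to at most 49.1 elsewhere, so the counts below are also given without those libraries. The myeloid list (9 genes) summed to 6445 to 7634 CPM in WT and 4688 to 5543 in Fpr2KO. By the tests used below, all 9 genes were below 0, against 51.4% of all genes. EdgeR called 0 of them and DESeq2 called 3, against 0.0373% and 0.354% of all genes. For 4 of them the groups did not overlap, which held for 5.91% of all genes. The part of myeloid cells in the values below was not tested.

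No marginal zone or follicular gene passed as changed in Fpr2KO spleens. By edgeR's quasi-likelihood test 0 of 10 members had an adjusted p under 0.05, against 0.0373% of all 16089 genes tested. DESeq2 called 0 of 10 as well, against 0.354% of all genes, and limma-voom called 0, against 5 of all 16089 genes. At an unadjusted p under 0.05 there was 1 member, Fcrl5, or 10% of the set against 4.98% of all genes (3.07% lower and 1.91% higher in Fpr2KO). It was also the only member whose groups did not overlap, which held for 5.91% of all genes (3.18% lower and 2.73% higher). Without Fpr2KO replicates 1 and 2 these counts were again 0 called and 1 at the unadjusted threshold, with 5 of 16232 genes called by edgeR.

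The fitted log2 fold change (Fpr2KO minus WT) was below 0 for 8 of the 10 members and for 51.4% of all genes. The median was -0.09 over the members and 0.00 over all genes, and with 1 library left out the members' median was lowest at -0.14, when WT replicate 2 was dropped, and highest at -0.03, when WT replicate 1 was dropped. For the 8 marginal zone genes the median was -0.12, with 6 below 0, and for the 2 follicular genes it was -0.04. The number below 0 was 6 without WT replicate 1 and 7 or 8 in each other alternative that was run.

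The intervals show how large a change these libraries leave room for. For 8 of the 10 members the 95% interval of the fold change lay inside 1.5-fold in either direction. The exceptions were Fcrl5, with an interval of 0.655 to 0.937, and Mzb1, with 0.459 to 1.31. Mzb1 was also the only member whose interval reached beyond a 2-fold change.

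**Figure D1:**
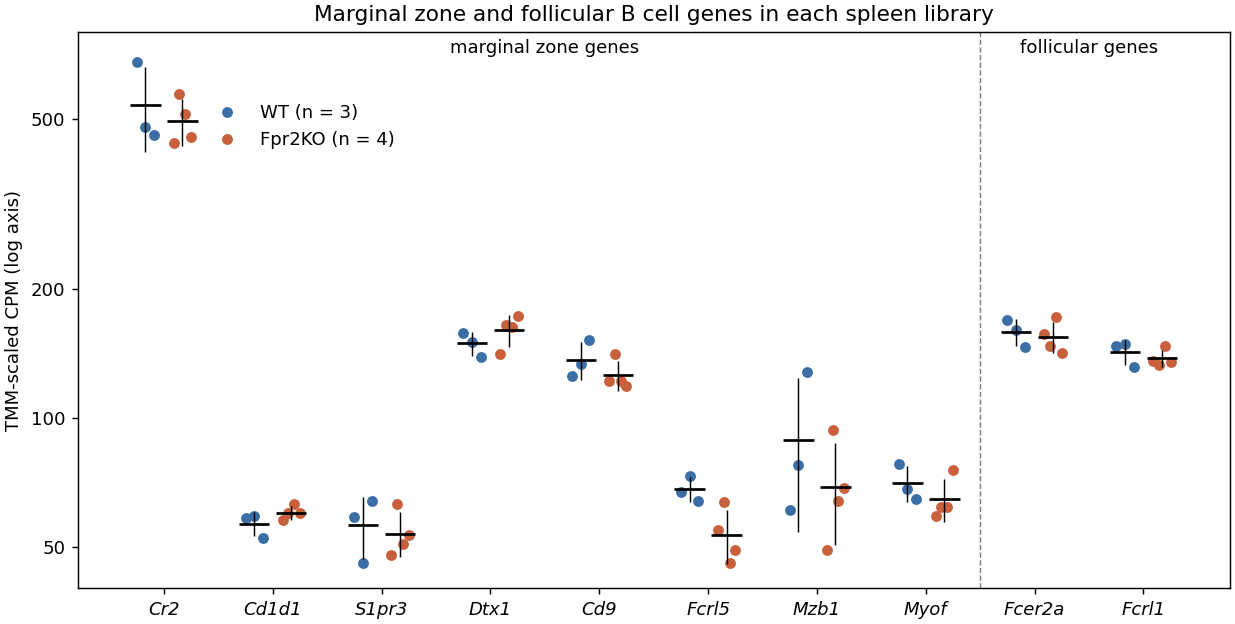
TMM-scaled CPM (log axis) of the 8 marginal zone genes and 2 follicular genes in each library; points are libraries (WT n = 3, Fpr2KO n = 4), horizontal lines are group means and vertical lines 1 SD. The groups overlap for every gene but Fcrl5, whose WT libraries all lie at or above 64.1 CPM and whose Fpr2KO libraries lie at or below 63.4.

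**Figure D2:**
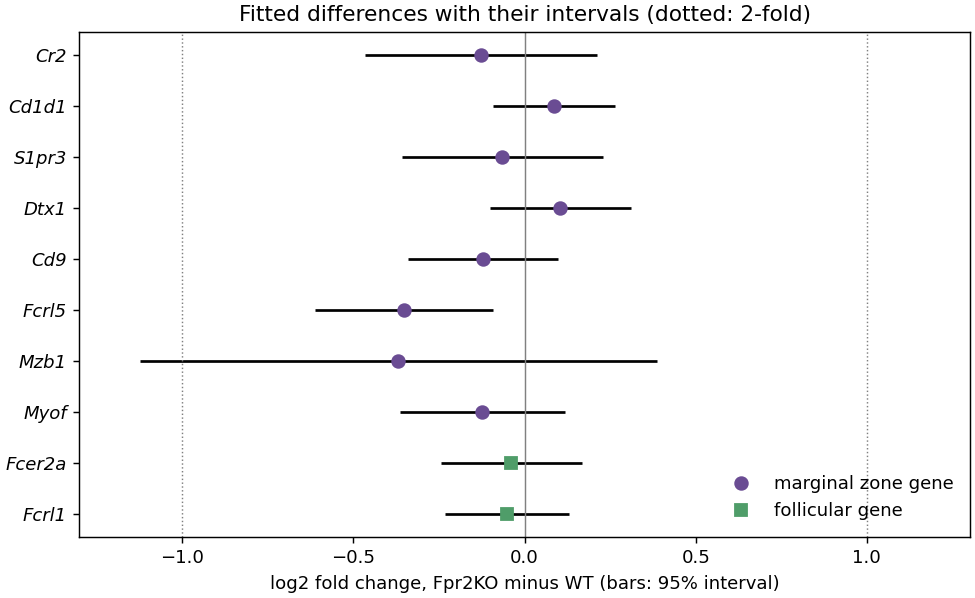
Fitted log2 fold change (Fpr2KO minus WT) of each gene with its 95% interval; circles are marginal zone genes, squares follicular genes and dotted lines 2-fold changes. The interval of Fcrl5 (-0.61 to -0.09) is the only one that leaves out 0, and that of Mzb1 (-1.12 to 0.39) is the widest.

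Cr2 (ENSMUSG00000026616, chromosome 1, 195136811 to 195176716, minus strand, GRCm38) encodes the complement receptors CD21 and CD35, which bind fragments of C3 on antigen. It had 682.9, 480.9 and 460.6 CPM in WT and 439.6, 574.5, 514.6 and 454.8 in Fpr2KO. WT replicate 1 was the highest library, and the other WT libraries lay within the Fpr2KO range. The means were 541 ± 123 CPM (SD, n = 3) and 496 ± 61.6 (SD, n = 4). The log2 fold change was -0.13 (SE 0.15, 95% interval -0.47 to 0.21, edgeR adjusted p = 1.0), and without WT replicate 1 it turned to 0.08. Follicular dendritic cells also carry CD21. The list of follicular dendritic and stromal genes (10 genes, none at 0) summed to 1417 to 2023 CPM in WT and 1597 to 2008 in Fpr2KO, and its part in the Cr2 level was not tested.

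The partners of CD21 on the B cell surface gave no call. Cd81, a tetraspanin of the B cell surface, had a log2 fold change of -0.05. C3, the source of the ligand, had 645 ± 150.1 CPM in WT and 559 ± 97.7 in Fpr2KO. Of the 8 genes in this list of coreceptor partners and complement components, edgeR and DESeq2 called 0, and none fell under 0.05 unadjusted.

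Cd1d1 (ENSMUSG00000028076, chromosome 3, 86995834 to 86999441, minus strand) encodes CD1d, which presents lipids to natural killer T cells and is high on marginal zone B cells. It had 58.3, 58.9 and 52.4 CPM in WT and 57.6, 59.8, 62.9 and 59.8 in Fpr2KO. WT replicate 3 was the lowest library, and Fpr2KO replicate 1 lay below the other WT libraries. Its log2 fold change was 0.09 (SE 0.08, 95% interval -0.09 to 0.27, edgeR adjusted p = 1.0). Its close copy Cd1d2 had only 8 to 24 counts per library. The longest protein-coding transcripts of the pair are 96.6% identical over 1198 aligned bases, so reads shared by them may have been assigned to either or left uncounted.

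S1pr3 (ENSMUSG00000067586, chromosome 13, 51408639 to 51422797, plus strand) encodes a receptor for sphingosine phosphate that is high on marginal zone B cells and also present on endothelium. It had 58.8, 45.7 and 63.8 CPM in WT and 47.8, 62.8, 50.7 and 53.2 in Fpr2KO. The lowest and the highest library were both WT, so the Fpr2KO range lay inside that of WT. Its log2 fold change was -0.07 (SE 0.13, 95% interval -0.36 to 0.23, edgeR adjusted p = 1.0), which moved to 0.04 when WT replicate 3 was left out. The endothelial list (10 genes, none at 0) summed to 777 to 904 CPM in WT and 725 to 835 in Fpr2KO. Of these genes 9 were below 0, against 51.4% of all genes. EdgeR called 0 of them and DESeq2 called 1, against 0.0373% and 0.354% of all genes. The part of endothelium in the S1pr3 level was not tested.

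Among 9 genes of sphingosine phosphate sensing and turnover, 0 passed edgeR's test and DESeq2 called 0. S1pr1, the main exit receptor of lymphocytes and a gene that follicular B cells share, had 206 ± 13.99 CPM in WT and 219 ± 17.5 in Fpr2KO. Spns2, a sphingosine phosphate exporter of endothelium, was the only gene of this list with an unadjusted p under 0.05, against 4.98% of all genes. It had 20.6 ± 3.16 and 27.2 ± 3.66 CPM, with a log2 fold change of 0.40 and an edgeR adjusted p of 0.884, and its groups overlapped. Sgpl1, the lyase that breaks the lipid down, had a log2 fold change of -0.11.

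Dtx1 (ENSMUSG00000029603, chromosome 5, 120680202 to 120711927, minus strand) encodes the ubiquitin ligase deltex, a target of Notch signalling in B cells. It had 158.2, 150.9 and 139.2 CPM in WT and 141.1, 165.3, 163.4 and 173.1 in Fpr2KO. Of the Fpr2KO libraries 3 lay above every WT library, and Fpr2KO replicate 1 lay near the lowest. The means were 149.4 ± 9.60 CPM (SD, n = 3) and 161 ± 13.7 (SD, n = 4). The log2 fold change of 0.11 (SE 0.09, 95% interval -0.10 to 0.31, edgeR adjusted p = 1.0) was the highest of the members.

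Notch pathway genes gave no call. Among its 15 genes, edgeR and DESeq2 called 0 and none fell under 0.05 unadjusted, with 8 below 0 and 7 above. The receptor gene Notch2 had 171 ± 29.0 CPM in WT and 152 ± 14.02 in Fpr2KO, a log2 fold change of -0.17. The ligand gene Dll1 was at -0.09 and Rbpj at -0.01. Lfng and Mfng encode fringe glycosyltransferases that tune the binding of Notch to its ligands. Lfng had 96.8 ± 5.48 and 109 ± 7.79 CPM with a narrow gap between the groups (highest WT library 101.5, lowest Fpr2KO library 101.8, log2 fold change 0.17, edgeR adjusted p = 1.0), and Mfng was at 0.13. Groups did not overlap for 1 of the 15 genes, Lfng, against 5.91% of all genes. Adam10, the protease that cleaves Notch, was at 0.05.

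Cd9 (ENSMUSG00000030342, chromosome 6, 125460266 to 125494791, minus strand) encodes a tetraspanin found on marginal zone B cells, plasma cells and platelets. It had 125.1, 133.5 and 152.4 CPM in WT and 122.3, 141.2, 121.9 and 118.6 in Fpr2KO. Fpr2KO replicate 2 lay above 2 of the WT libraries, and the other Fpr2KO libraries lay just below all 3. The log2 fold change was -0.12 (SE 0.10, 95% interval -0.34 to 0.10, edgeR adjusted p = 1.0), and with 1 library left out it lay between -0.18 (without WT replicate 1 or Fpr2KO replicate 2) and -0.04 (without WT replicate 3). All 8 tetraspanin genes on the list were below 0 and 0 passed edgeR's test, with 0 at an unadjusted p under 0.05 and 0 called by DESeq2. The B cell tetraspanin Cd37 had 348 ± 11.1 CPM in WT and 317 ± 19.98 in Fpr2KO.

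Cd9 and the platelet genes had their highest values in the same libraries in part. The platelet and megakaryocyte list (9 genes, none at 0) summed to 502, 906 and 984 CPM in WT and to 712, 904, 572 and 496 in Fpr2KO. WT replicate 3 was highest in both, and Fpr2KO replicates 2 and 4 were the highest and the lowest Fpr2KO library in both. The part of platelet RNA in the Cd9 level was not tested.

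Fcrl5 (ENSMUSG00000048031, chromosome 3, 87435773 to 87500678, plus strand) encodes an Fc receptor-like protein of marginal zone and B-1 cells that dampens B cell receptor signalling. It had 67.0, 73.0 and 64.1 CPM in WT and 54.8, 63.4, 45.7 and 49.2 in Fpr2KO. Every Fpr2KO library was below every WT library, but Fpr2KO replicate 2 lay just under WT replicate 3. The means were 68.0 ± 4.55 CPM (SD, n = 3) and 53.3 ± 7.72 (SD, n = 4). The log2 fold change was -0.35 (SE 0.12, 95% interval -0.61 to -0.09), with an edgeR unadjusted p of 0.0127. It did not pass over all genes (edgeR adjusted p = 0.850, DESeq2 adjusted p = 0.697).

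Relative to B cell genes the Fcrl5 groups overlapped. Set against the summed core B cell genes, Fcrl5 had 12.4, 13.9 and 11.7 CPM per 1000 CPM of that list in WT and 11.2, 12.3, 8.39 and 8.83 in Fpr2KO. Fpr2KO replicate 2 then lay above WT replicate 3. With the core B cell score as a covariate the log2 fold change was -0.38 (edgeR adjusted p = 0.753). Over the other alternatives it ran from -0.51, without Fpr2KO replicates 1 and 2, to -0.29, without Fpr2KO replicate 3, and adjusted p was between 0.517 and 1.0. The unadjusted p was 0.0515 without WT replicate 2 and under 0.05 in each other alternative.

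The relatives of Fcrl5 did not pass. Fcrla, an intracellular family member of B cells, had 134 ± 5.54 CPM in WT and 133 ± 11.7 in Fpr2KO. Fcmr, the IgM receptor gene, was at a log2 fold change of -0.07. Fcrl6 and Fcrls had 21 and 16 counts in all libraries together and were not tested. Across the 5 tested family genes edgeR and DESeq2 called 0, and Fcrl5 alone fell under 0.05 unadjusted, against 4.98% of all genes.

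Mzb1 (ENSMUSG00000024353, chromosome 18, 35647267 to 35649367, minus strand) encodes a chaperone of the endoplasmic reticulum that helps assemble IgM and is abundant in plasma cells. It had 60.9, 77.8 and 128.0 CPM in WT and 49.1, 93.6, 63.8 and 68.7 in Fpr2KO. WT replicate 3 stood highest and Fpr2KO replicate 1 lowest, a 2.61-fold span, the widest of the members. The log2 fold change was -0.37 (SE 0.31, 95% interval -1.12 to 0.39, edgeR adjusted p = 1.0). Leaving out WT replicate 3 brought it to -0.01. In the annotation, Mzb1 shares exon bases with the gene named SPATA24 on the same strand, which is listed at 0 in every library.

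The plasma cell list peaked in the same library as Mzb1. Its 12 genes, none at 0, summed to 2874, 2872 and 6086 CPM in WT and to 2349, 4201, 3526 and 2706 in Fpr2KO. WT replicate 3 was highest and Fpr2KO replicate 1 lowest for both, and Fpr2KO replicate 2 was the highest Fpr2KO library for both. Jchain, the joining chain of IgM and IgA, had 2880 ± 1544 CPM in WT and 2328 ± 726 in Fpr2KO. Xbp1, a regulator of the secretory programme, had 333 ± 117 and 264 ± 44.3 CPM. All 12 plasma cell genes were below 0 and 0 passed edgeR's test, with 0 at an unadjusted p under 0.05 and 0 called by DESeq2. The part of plasma cells in the Mzb1 level was not tested.

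**Figure D3:**
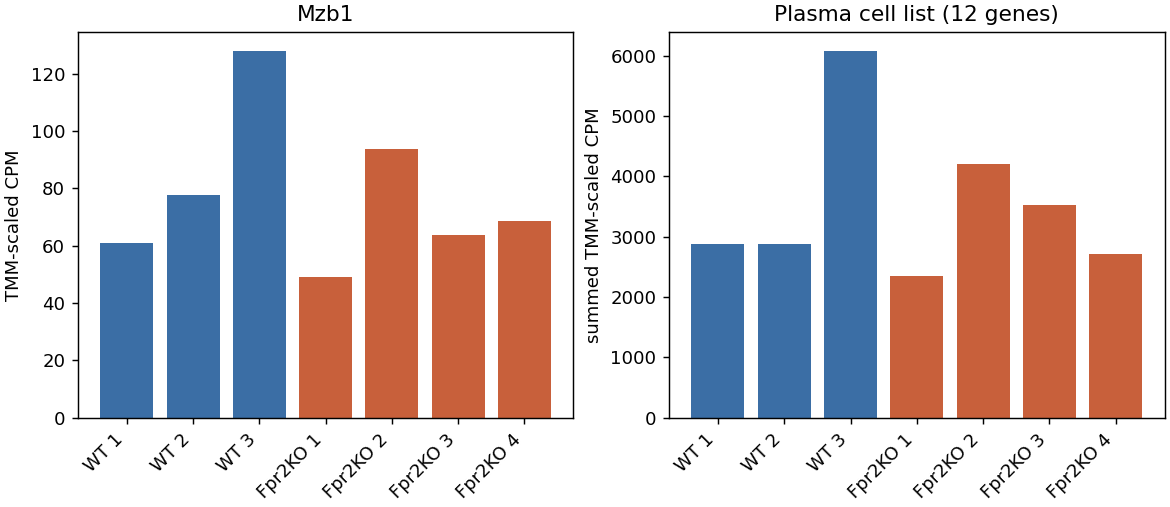
TMM-scaled CPM of Mzb1 (left) and summed CPM of the 12 plasma cell genes (right), 1 bar per library, blue for WT and orange for Fpr2KO. WT replicate 3 is highest in both panels (128.0 CPM and 6086 CPM) and Fpr2KO replicate 1 lowest (49.1 and 2349).

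Myof (ENSMUSG00000048612, chromosome 19, 37899036 to 38043577, minus strand) encodes myoferlin, a ferlin of membrane repair that is also expressed in endothelium and muscle. It had 77.8, 68.4 and 64.6 CPM in WT and 58.9, 62.0, 61.7 and 75.4 in Fpr2KO. Of the Fpr2KO libraries 3 lay below every WT library, and Fpr2KO replicate 4 lay above 2 of them. Its log2 fold change was -0.12 (SE 0.11, 95% interval -0.36 to 0.12, edgeR adjusted p = 1.0). Leaving out Fpr2KO replicate 4 gave -0.21, leaving out WT replicate 1 gave -0.04, and leaving out Fpr2KO replicates 1 and 2 together gave -0.03. The endothelial sum was highest in WT replicate 1 (904 CPM), and next in Fpr2KO replicate 4 (835 CPM), the libraries with the highest Myof, and its part in the Myof level was not tested. Dysf, the dysferlin gene of the same family, had a log2 fold change of 0.18.

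Fcer2a (ENSMUSG00000005540, chromosome 8, 3681737 to 3694175, minus strand) encodes CD23, the low-affinity IgE receptor, which is high on follicular and low on marginal zone B cells. It had 169.2, 160.9 and 146.7 CPM in WT and 156.9, 147.8, 172.2 and 142.1 in Fpr2KO. The highest and the lowest library were both Fpr2KO, so the WT range lay inside that of Fpr2KO. The means were 159 ± 11.4 CPM (SD, n = 3) and 155 ± 13.1 (SD, n = 4). The log2 fold change was -0.04 (SE 0.09, 95% interval -0.24 to 0.17, edgeR adjusted p = 1.0), with a sign that depended on the setting. Leaving out WT replicate 1 gave 0.01, and leaving out Fpr2KO replicate 4 gave 0.00075.

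Fcrl1 (ENSMUSG00000059994, chromosome 3, 87376387 to 87402934, plus strand) encodes an Fc receptor-like protein of mature B cells and neighbours Fcrl5 on the chromosome. It had 147.7, 149.1 and 131.7 CPM in WT and 135.6, 133.2, 147.2 and 135.5 in Fpr2KO. It varied least of the members, with a 1.13-fold span over the libraries. Its log2 fold change was -0.05 (SE 0.08, 95% interval -0.23 to 0.13, edgeR adjusted p = 1.0).

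Other genes of the subsets gave no call, and the groups overlapped for all of them but Il4ra. Of all genes, 5.91% had groups that did not overlap. Among 8 further marginal zone genes edgeR and DESeq2 called 0 and none fell under 0.05 unadjusted, with 4 below 0 and 4 above. Plac8 had 429 ± 73.2 CPM in WT and 454 ± 21.8 in Fpr2KO, and Cd36, a scavenger receptor gene also found in macrophages and endothelium, had 363 ± 54.1 and 378 ± 50.2. In the list of 10 further follicular and recirculation genes the counts were likewise 0, 0 and 0, with 7 below 0, against 51.4% of all genes. Cxcr5, the receptor that draws B cells into follicles, had 211 ± 17.9 and 187 ± 24.7 CPM. Il4ra, a chain of the interleukin-4 receptor, had 172 ± 16.0 and 154 ± 7.62 CPM without overlap (log2 fold change -0.16, edgeR adjusted p = 1.0).

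Genes of all B cells gave no call either. Ms4a1, which encodes CD20, had 773 ± 49.2 CPM in WT and 803.5 ± 75.5 in Fpr2KO. Of the 18 core B cell genes 0 passed edgeR's test and DESeq2 called 0. At an unadjusted p under 0.05 there were 2, against 4.98% of all genes. These were Pou2af1, a transcriptional coactivator of B and plasma cells (log2 fold change -0.38, edgeR adjusted p = 0.613), and Bach2, a repressor of the plasma cell programme (0.38, edgeR adjusted p = 0.988). Of this list, only Pou2af1 had groups that did not overlap (334.3 to 436.8 CPM in WT, 271.3 to 316.7 in Fpr2KO), against 5.91% of all genes. In the immature B cell list, where 4 of 8 genes were tested, Il7r was at -0.44 (edgeR adjusted p = 0.817), a gene that T cells share. In the germinal centre list edgeR and DESeq2 called 0 of 8, with 1 gene (Gpr137b-ps) under 0.05 unadjusted. Gpr137b-ps was also the only gene of that list whose groups did not overlap, with Fpr2KO lower. Bcl6, the defining transcription factor of germinal centre B cells, had a log2 fold change of -0.24. Marginal zone macrophages lie beside marginal zone B cells, and all 5 genes of their list were below 0, against 51.4% of all genes. EdgeR and DESeq2 called 0 of the 5. At an unadjusted p under 0.05 there were 2, against 4.98% of all genes. For 1 the groups did not overlap, against 5.91% of all genes. The list summed to 550 to 698 CPM in WT and 485 to 606 in Fpr2KO.

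The balance of marginal zone to follicular genes overlapped between the groups. The mean log2 CPM of the 8 marginal zone genes minus that of the 2 follicular genes was -0.59, -0.63 and -0.38 in WT and -0.74, -0.38, -0.76 and -0.52 in Fpr2KO. The highest WT and the highest Fpr2KO library were level, and Fpr2KO replicates 1 and 3 were lowest. The group means were -0.53 ± 0.14 (SD, n = 3) and -0.60 ± 0.19 (SD, n = 4), a difference of -0.07 that was smaller than the SD of either group. With medians over the genes in place of means the difference was -0.19, and without Mzb1, Cd9 and Myof it was -0.02. The ratio of Cr2 to Fcer2a CPM was 4.04, 2.99 and 3.14 in WT and 2.80, 3.89, 2.99 and 3.20 in Fpr2KO. WT replicate 1 and Fpr2KO replicate 2 had the highest ratios, and the groups overlapped. Both measures are descriptions with no test.

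In Fpr2KO replicate 1 all 8 marginal zone genes lay below their mean over the 7 libraries, and in Fpr2KO replicate 2 all of them but Myof lay above it. The sum of the core B cell list was also lowest in Fpr2KO replicate 1 (4905 CPM), and it was 5156 CPM in Fpr2KO replicate 2. The part of B cell content in these deviations was not tested. The library with the highest value differed between members. Cr2 and Myof were highest in WT replicate 1, Fcrl5 and Fcrl1 in WT replicate 2, and S1pr3, Cd9 and Mzb1 in WT replicate 3. Fpr2KO replicate 1 was lowest for Cr2, Mzb1 and Myof. WT replicate 3 held the highest value of 3 members and the lowest of 3 others, Cd1d1, Dtx1 and Fcrl1. Erythroid transcripts also varied by library, from 14970 to 92000 summed CPM in WT and from 10050 to 51500 in Fpr2KO, and their part in the members' levels was not tested.

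**Figure D4:**
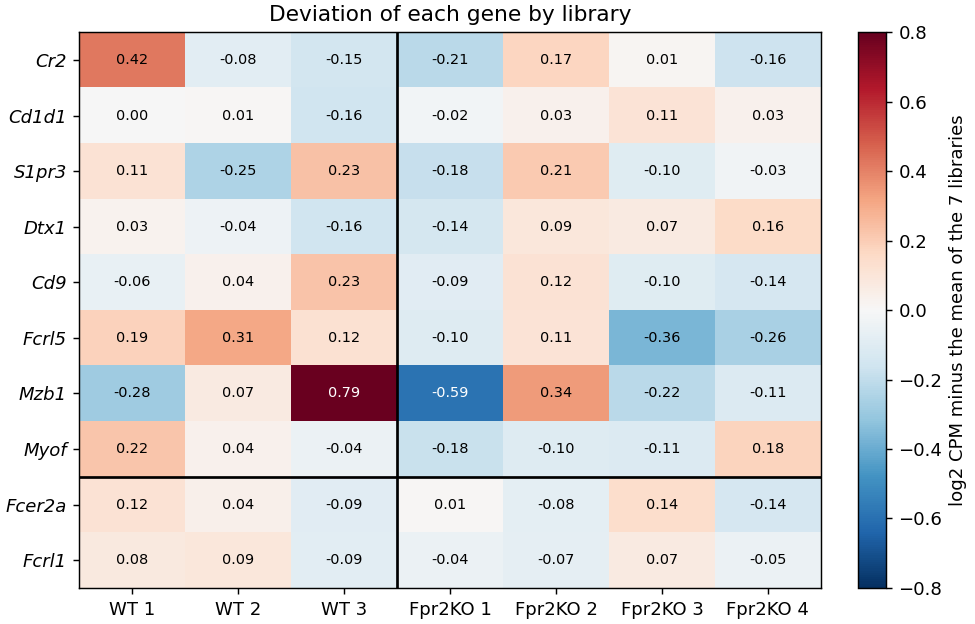
Deviation of each gene (rows) from its mean over the 7 libraries (columns), in log2 CPM; red is higher and blue lower. Mzb1 in WT replicate 3 (0.79) and in Fpr2KO replicate 1 (-0.59) and Cr2 in WT replicate 1 (0.42) deviate most, while Fcrl1 stays between -0.09 and 0.09.

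Likeness of pattern was measured by the root mean square difference of centred log2 CPM over the 7 libraries, among 10048 genes. Closest to Cr2 were Nin (0.0526), Smg1 (0.0535) and Ankhd1 (0.0563), against a median of 0.247 over all these genes. These 3 were picked as the nearest genes, so values below the median follow from the choice. The same holds for their highest library, WT replicate 1, which is also that of Cr2. Smg1 had 331 CPM there and 215 to 305 CPM in the other libraries. Closest to Fcer2a, by the same choice, were Ptcd3 (0.0293), Mum1 (0.0358) and Lamtor3 (0.0366), against a median of 0.166. Among the members, Fcrl1 was closest to Fcer2a (0.0524), and Fcer2a was closest to Cr2 (0.186). This measure is also lower for genes that vary little, so the value of 0.186 does not show a shared pattern.

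Compared per length, the members ranged from 5.31 to 64.0 CPM per kilobase of annotated exon. Over the 7 libraries Cd9 had 64.0 ± 6.05 CPM per kilobase (SD, n = 7), Mzb1 63.7 ± 21.7 and Cr2 63.5 ± 10.7. These 3 did not differ beyond their spread. Fcer2a followed (50.6 ± 3.75), with a range that overlapped that of Cr2 only across different libraries. Fcrl1 (39.3 ± 2.14), Dtx1 (29.6 ± 2.41) and Cd1d1 (22.8 ± 1.24) came next, each with every library below those of the gene before it. Cd1d1 and Fcrl5 (17.1 ± 2.86) overlapped, as did Fcrl5 and S1pr3 (12.3 ± 1.61), and Myof was lowest at 5.31 ± 0.574. Members such as Cd9, Mzb1, Myof, S1pr3 and Cr2 are also made by other spleen cells, so this order is one of whole spleen and not of B cells.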

How the data were processed

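The authors deposited raw read counts per Ensembl gene, 1 column per library. Per the submitters' processing notes, FastQC 0.10.1 and HTSeq 0.10.0 were used with mm10 (GRCm38); aligner, annotation release and strand setting are not given in the sources used here, so reads of antisense neighbours (Gm32834 at S1pr3, Gm26728 at Cd9, at most 22 counts) cannot be told apart. Symbols, positions and exon lengths came from GENCODE M21, which matched 52081 of 55414 IDs. Groups were compared with edgeR 4.0.16 (R 4.3.3): TMM, filterByExpr, robust quasi-likelihood F test and Benjamini-Hochberg adjustment over 16089 genes at 0.05. SE is the log2 fold change over the root of F. CPM uses TMM factors, and log2 CPM a prior count of 2. Simulated counts with known changes were also put through this fit, and the outcome is not reported here. Alternatives were 2 other scalings, trimmed library sizes, 2 filters, DESeq2 1.42.0, limma 3.58.1 voom, no robust estimation, a replicate block, a core B cell covariate and left-out libraries. Members and lists were chosen with earlier results of these data known. Genes were named from the members, Fpr2, Cd1d2, the 3 smallest p and 2 highest levels of each list, and the 3 genes nearest to Cr2 and to Fcer2a. Not every gene picked by that rule is named. In the myeloid, endothelial, platelet, plasma cell and marginal zone macrophage lists, the genes with the smallest p are given only within sums and counts. Cd81, Rbpj, Dll1, Fcrla, Fcrl6 and Fcrls were named outside that rule. One gene of the lists is not reported here.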

Additional observations from a re-analysis of the deposited data

Results flagged for a closer look

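Cd9 in Fpr2KO had 1 library apart from the other 3: Fpr2KO replicate 2 had 141.2 CPM and the others 118.6 to 122.3. Its gap to the nearest library was 0.837 of the group's range, above Dixon's 95% critical value for 4 samples. This was 1 of 36 Fpr2KO groups examined, and chance gives about 1 in 20. For Cd9 the log2 fold change was -0.12 with all libraries, -0.18 without that library and -0.04 without WT replicate 3. The 3 WT libraries were too few for this rule.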

How the results depend on the processing

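No member passed in any of the 18 alternatives. Of 180 recomputed member values, 174 kept their direction and 6 changed sign, none of them a call. The 174 include settings that barely move a fold change. With robust estimation off, the members' fold changes were those of the main analysis, so they could not change sign. With 1 library left out Cr2 ran from -0.2303 to 0.076 (above 0 without WT replicate 1), S1pr3 from -0.1923 to 0.038 (above 0 without WT replicate 3) and Fcer2a from -0.0929 to 0.01011. Cd1d1 ran from 0.04 (without WT replicate 3) to 0.12, Dtx1 from 0.06 (without WT replicate 3) to 0.17 (without Fpr2KO replicate 1), and Fcrl1 from -0.11 (WT replicate 3 dropped) to -0.02 (WT replicate 2 dropped). Mzb1 was lowest at -0.58 (WT replicate 1 dropped) and highest at -0.01 (WT replicate 3 dropped). Fcer2a turned to 0.0087 with limma-voom, 0.00014 with the replicate block, 0.01011 without WT replicate 1 and 0.00075 without Fpr2KO replicate 4. Over all genes, calls numbered 6 in the main analysis, 21 without a low count filter, 57 with DESeq2, 2 with the replicate block and 5 to 15 with 1 library left out (10 without WT replicate 1, 15 without WT replicate 3). Same-numbered libraries correlated at 0.0778, -0.434 and -0.0733 in their deviations from the group means. WT replicate 2 with Fpr2KO replicate 1 and WT replicate 3 with Fpr2KO replicate 2 each gave 0.436. These values cannot tell whether same-numbered libraries share a batch, since deviations within such small groups also follow other differences among libraries. With the block, as in the main analysis, no member was called. Fpr2 stayed called throughout. The marginal zone to follicular difference of -0.07 ran from -0.15 to 0.007 with 1 library left out, and was -0.19 with medians.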
